A study of Homo sapiens with 42 samples.

Results

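Of the 46 human genes that sense and signal DNA double-strand breaks, join or recombine broken ends, or repair interstrand crosslinks through the Fanconi pathway, 41 were measured here, each by 1 entry of the array. Members were chosen by name: an entry counted if its only gene symbol, current or earlier, was on the list. The rule uses no measured value, although the list was drawn up with earlier results of these data known. The 41 are among 18404 genes tested. BRCA2, FANCA, FANCD2, RBBP8 and RAD51D are not analysed here. By role the measured genes comprise 5 of break signalling, 7 of end joining, 4 of end resection, 12 of homologous recombination, 5 of junction processing, 7 of the Fanconi core complex and FANCI.

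The study profiled RNA from 2 established human cell lines of lung cancer origin on 42 Affymetrix arrays, with 1 sample an array. H460, derived from a large-cell carcinoma, is called radiosensitive in the series' description and H1299 radioresistant. Both were grown in serum-supplemented medium and given 2 Gy of gamma rays while growing exponentially. Each line has 3 arrays at 2, 4, 8, 12 and 24 h after the dose and 6 arrays at 0 h, labelled as taken before irradiation. No later array is labelled as unirradiated, so time since the dose and time in culture cannot be told apart. Each line is 1 established culture, and H460 carries intact p53 whereas H1299 is a p53-null line, as is generally known. The arrays of a group are labelled biological replicates.

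A double-strand break is marked by kinases and ubiquitin ligases, and 53BP1 with RIF1 then protects its ends while the MRE11, RAD50 and NBN complex with EXO1 cuts them back. Protected ends are joined directly by Ku, XRCC4 and ligase IV, or through short homologies by polymerase theta. Ends that were cut back are repaired from the sister chromatid by BRCA1, BARD1, PALB2 and the strand-exchange recombinase with its paralogs, mostly in S and G2 phase, and helicases and nucleases then take the joint molecules apart. The Fanconi core complex adds ubiquitin to FANCD2 and FANCI at stalled forks and crosslinks. Many genes of recombination and of the Fanconi pathway are known to be transcribed with the cell cycle.

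All values are log2 array intensities, and a change is a difference of mean log2 values, given with the standard error of the model. A gene is called where the Benjamini-Hochberg adjusted p of limma's moderated test, over all 18404 genes, was under 0.05. As a check of the labels, CDKN1A and MDM2, both p53 targets, were followed in both lines. CDKN1A, which halts the cell cycle, was 0.53 to 1.62 higher than at 0 h at all 5 later times in H460, each called, and changed by -0.17, 0.20, 0.20, 0.06 and 0.42 at 2, 4, 8, 12 and 24 h in H1299, called at 8 h (adjusted p = 0.0441) and 24 h (adjusted p = 0.000262). MDM2, which targets p53 for degradation, changed by 0.30, 1.12, 0.79, 0.91 and 0.46 in H460 and by 0.19, 0.30, 0.36, 0.39 and 0.39 in H1299, and was called at each time in both lines. Of 6 epithelial markers, KRT8 and KRT18 lay above percentile 98 of all genes at 0 h in both lines, KRT19 at 99.2 in H460 and 38.0 in H1299, KRT7 at 59.9 in H460 and lower in H1299, and EPCAM and CDH1 at 16 to 19 in both. Of 5 leukocyte markers, CD68 lay at 88.0 in H460 and 88.8 in H1299 and CD14 at 47.8 and 31.5, while CD3E, LYZ and PTPRC were at 17.0 or lower in both. Of 7 fibroblast markers, COL1A1 was the highest, at 59.7 in H460 and 51.8 in H1299, COL3A1, COL1A2 and PDGFRB lay at 50.5 or lower, LUM at 11.5 and 0.50, and DCN and POSTN at 5.28 or lower. The spread of values within an array, taken as its interquartile range, averaged 2.84 at 2 h against 3.34 at 0 h in H460, and 3.53 at 2 h against 3.58 at 0 h in H1299. In later H460 arrays it averaged 3.35, 3.64, 3.67 and 3.64 at 4, 8, 12 and 24 h. For H1299 these averages were 3.66, 3.81, 3.82 and 3.67. In bulk cultures fewer cells of one kind and less RNA per cell cannot be told apart.

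In H460, 30 of the 41 genes were lower at 2 h than at 0 h and none was higher. At that time 40.4% of all genes were called, 16.7% as higher and 23.7% as lower. At 4 h, 1 member was higher and 2 were lower, where 2.92% of all genes were called, 1.37% as higher and 1.55% as lower. At 8 h 6 members were higher and 2 lower (16.9% of all genes, 10.7% higher and 6.22% lower), at 12 h 7 and 7 (33.5%, 16.7% and 16.8%), and at 24 h 3 and 11 (28.7%, 16.2% and 12.4%). The median change of the 41 genes was -0.45, -0.10, 0.10, 0.05 and -0.19 at the 5 times, and that of all genes lay between -0.05 and -0.01. The members' fall at 2 h went with the narrow arrays of that time. With array width as a covariate 0 members were called at 2 h by limma, 2 at an unadjusted p under 0.05, and no gene of the 18404 was called. Width and time are confounded in H460. Interquartile ranges were 2.75 to 2.97 at 2 h and 3.14 to 3.63 at 0 h, and arrays at 8, 12 and 24 h were wider on average. A call lost with the covariate in H460 therefore cannot be assigned to width or to time. At the later times the covariate left 2 higher and 4 lower at 4 h, 0 and 2 at 8 h, 0 and 7 at 12 h, and 0 and 18 at 24 h, so that no member stayed higher at 8, 12 or 24 h. Of all genes 5.31, 0.717, 3.41 and 8.41% were then called at those 4 times. Without replicate 3 of the 2 h arrays, the narrowest, 16 members were lower. Leaving out 1 array also moved the later counts: the 8 called at 8 h became 3 or 4 without any 1 of its arrays, the 14 at 24 h became 8 or 9, and the 3 at 4 h became 1 without replicate 1 or 3. Quantile normalization gave 1 higher and 17 lower at 2 h, 3 and 4 at 8 h, 5 and 8 at 12 h, and 2 and 17 at 24 h. The shares of all genes called were then 27.5, 10.7, 23.4 and 23.8%.

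In H1299 more of the same genes were called higher than lower at each time. At 2 h 15 were higher and 4 lower than at 0 h (13.8% of all genes called, 5.88% as higher and 7.93% as lower). The counts were 21 and 4 at 4 h (15.9% of all genes, 10% higher and 5.83% lower), 20 and 1 at 8 h (24.6%, 15% and 9.54%), 21 and 4 at 12 h (29.7%, 16.6% and 13.1%), and 8 and 3 at 24 h (11.7%, 8.53% and 3.21%). The median change was 0.15, 0.21, 0.23, 0.27 and 0.08 in that order. LIG4, RAD50, RAD54B, FANCM and RIF1 were higher at all 5 times. With array width in the model 20, 21, 15, 14 and 8 members were higher, and 4, 3, 3, 8 and 6 lower. Of all genes 22.2, 19.2, 15.6, 17.7 and 14.6% were then called. The members' median change was then 0.19, 0.18, 0.05, 0.09 and 0.03. H1299 arrays at 8 and 12 h were wider on average than at 0 h. A call lost there with the covariate cannot be assigned to width or to time. Quantile normalization gave 20 higher and 5 lower at 8 h (24.7% of all genes called) and 18 and 8 at 12 h (29.3%). The 2 h count of 19 rested on single arrays: it was 5 without replicate 3, 8 without replicate 2 of the 2 h arrays and 12 without replicate 3 at 0 h. The 4 h count of 25 was 14 without replicate 1 of that time, and the 24 h count of 11 was 6 without replicate 3.

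**Figure D1:**
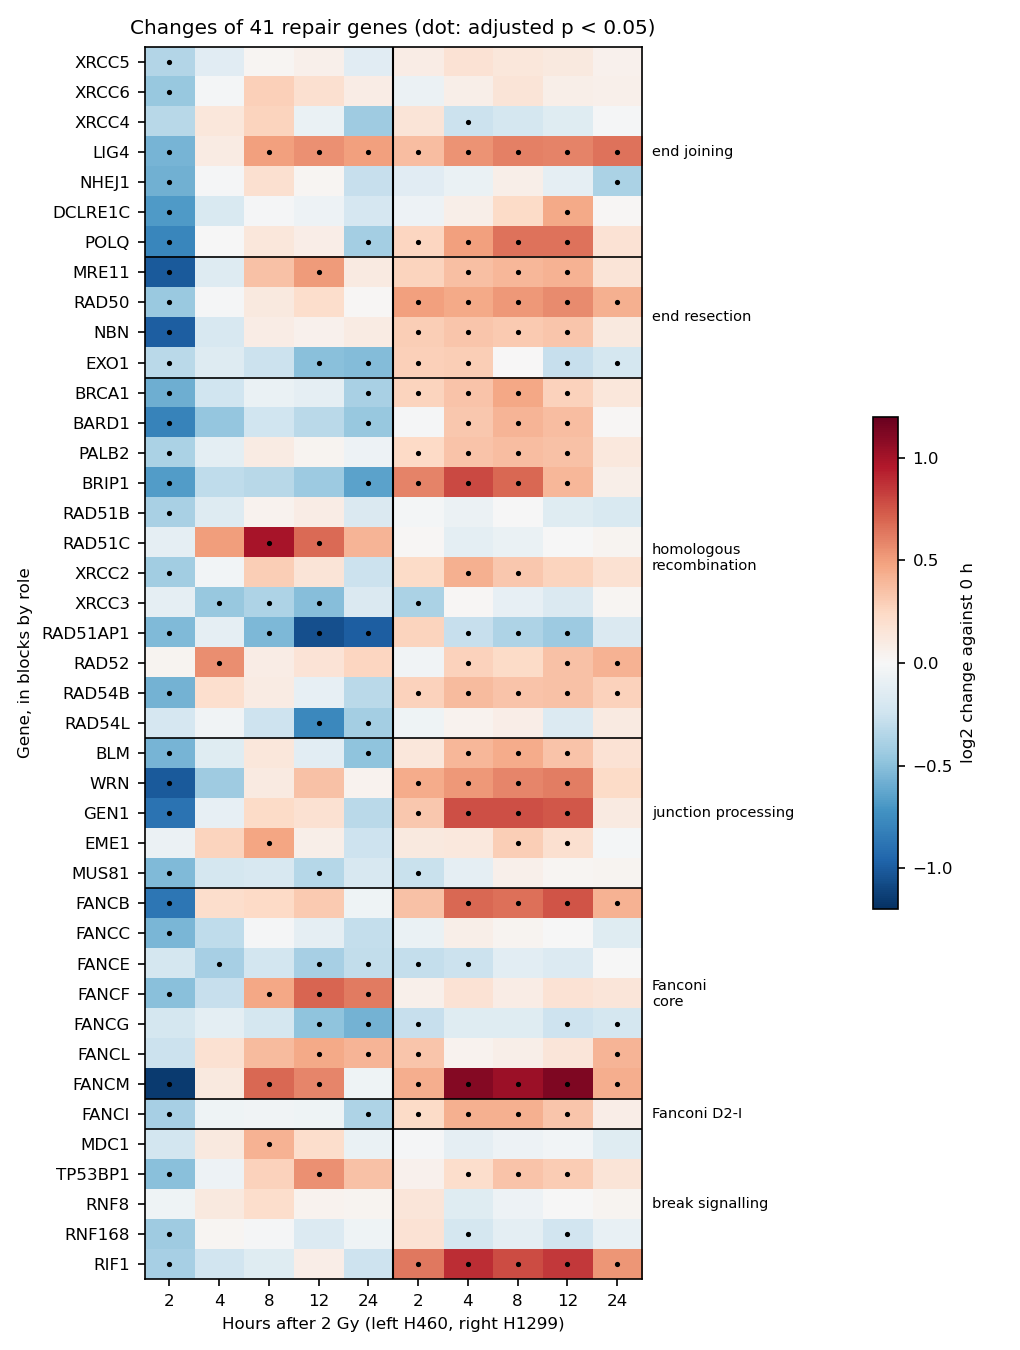
Log2 change against 0 h of the 41 genes, one row a gene in blocks by role, at 2, 4, 8, 12 and 24 h in H460 (left block) and H1299 (right block), with a dot where the adjusted p was under 0.05. The H460 column at 2 h holds 30 dots, all on lower values, and the H1299 columns at 4, 8 and 12 h hold 21, 20 and 21 dots on higher values.

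The change in H460 minus the change in H1299, tested as an interaction over all 42 arrays, was negative for most called members. At 2 h 28 were lower and none higher (28.6% of all genes called, 18.5% as lower and 10.2% as higher). The counts lower and higher were 14 and 1 at 4 h (8.54% of all genes, 5.33% lower and 3.21% higher), 6 and 2 at 8 h (10.1%, 3.55% and 6.56%), 6 and 2 at 12 h (8.68%, 3.47% and 5.21%), and 10 and 0 at 24 h (12.4%, 4.7% and 7.75%). POLQ, BARD1, BRIP1 and RIF1 were lower at all 5 times. The 2 h difference of BARD1 was not called by limma with array width in the model (-0.51, adjusted p = 0.0868). The 4 h count of 15 became 6 or 7 without H1299 replicate 1 or 3 or H460 replicate 2, and 9 without H460 replicate 3. The 8 h count of 8 became 5 without H460 replicate 2 or H1299 replicate 3, the 12 h count of 8 became 5 without H1299 replicate 2, and the 24 h count of 10 became 6 without replicate 3 of either line. With array width in the model the lower calls numbered 9, 14, 13, 14 and 18 and the higher calls 0, 1, 2, 2 and 0. Of all genes 5.61, 12.7, 13.7, 11.1 and 12.4% were then called. Without the narrow H460 2 h arrays, an alternative chosen after the data were seen, 18, 9, 12 and 16 members were lower at 4, 8, 12 and 24 h. There 1, 3, 2 and 1 were higher, and 12.2, 13.6, 11.3 and 15.8% of all genes were called. A quadratic time course was called for 14 members in H460 (41.9% of all genes), for 25 in H1299 (36.5%), and differed between the lines for 5 (16.7%), namely RIF1, BRIP1, RAD51C, RAD54L and FANCF. The 5 became 13 without replicate 3 of the H460 2 h arrays and 8 without replicate 2.

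Among the genes of break signalling RIF1, which with 53BP1 shields ends from resection, had the largest change in H1299. In H460 RIF1 was called only on the narrow 2 h arrays, at -0.40, a call lost with array width as a covariate. In H460 it read 9.69, 9.17 and 9.51 on the 4 h arrays, against 9.50, 9.71 and 9.88 as lowest, median and highest at 0 h. In H1299 it read 10.39, 10.32 and 10.32 at 4 h, against 9.29, 9.47 and 9.61 at 0 h. The H460 groups overlapped, whereas all H1299 arrays at 4 h, and at every other later time, lay above those at 0 h. The 4 h change was -0.23 ± 0.13 in H460 (adjusted p = 0.367) and 0.89 ± 0.08 in H1299 (adjusted p = 6.4e-08), and the changes differed by -1.12 ± 0.16 (adjusted p = 2.19e-05, limma). At 24 h RIF1 was still 0.53 ± 0.08 higher in H1299, after 0.63, 0.79 and 0.85 at 2, 8 and 12 h. RIF1 lies on chromosome 2 at 151409902 to 151534435 (GRCh38.p14, RefSeq).

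The stretch before the start of a gene holds sites to which factors of the cell cycle can bind, so the 250 bases upstream of each annotated start (RefSeq, GRCh38.p14) were searched on both strands for 3 kinds of word. These were the E2F-type words TTTCCCGC, TTTCGCGC, TTTGCCGC and TTTGGCGC, the CHR element TTTGAA, and the CCAAT box. Windows were at hand for 36 of the 41 genes. An E2F-type word stood in 2.0% of the members' windows and in 2.79% of all 35116 windows, a CHR in 10.0% and 13.3%, and a CCAAT box in 44.0% and 32.0%. Among S phase genes 36.8% of windows held an E2F-type word, and among G2 and mitosis genes 53.3% held a CHR. A match is a description of the letters, not a bound site. Capitals below mark matches, on either strand. The windows of RIF1, POLQ and BARD1 are shown because their changes, like that of BRIP1, differed between the lines at all 5 times. RIF1 (chr2:151409652-151409901, plus strand) holds 1 CHR and 1 CCAAT box, POLQ (chr3:121545989-121546238, minus strand) 1 CHR, and BARD1 (chr2:214809684-214809933, minus strand) none of the words.
RIF1: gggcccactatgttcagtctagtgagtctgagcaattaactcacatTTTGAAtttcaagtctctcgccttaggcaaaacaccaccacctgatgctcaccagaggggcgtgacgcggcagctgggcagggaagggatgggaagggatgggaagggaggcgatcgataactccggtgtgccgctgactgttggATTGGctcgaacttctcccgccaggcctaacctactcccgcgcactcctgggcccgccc
POLQ: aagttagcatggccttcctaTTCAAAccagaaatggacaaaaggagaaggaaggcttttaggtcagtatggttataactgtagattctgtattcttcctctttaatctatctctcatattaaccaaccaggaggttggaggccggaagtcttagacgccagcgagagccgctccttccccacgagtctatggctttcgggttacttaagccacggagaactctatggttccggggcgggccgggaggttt
BARD1: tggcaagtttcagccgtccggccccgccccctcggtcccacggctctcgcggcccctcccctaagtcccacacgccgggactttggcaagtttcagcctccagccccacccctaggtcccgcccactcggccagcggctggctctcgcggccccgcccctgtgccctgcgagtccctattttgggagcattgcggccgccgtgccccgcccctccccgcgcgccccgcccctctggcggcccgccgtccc

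TP53BP1, which encodes 53BP1, read 8.53, 8.55 and 8.51 at 12 h in H460, against 7.84, 8.00 and 8.04 as lowest, median and highest at 0 h, and 8.62, 8.63 and 8.59 at 12 h in H1299, against 8.21, 8.30 and 8.45 at 0 h. The groups did not overlap in either line. It was 0.55 ± 0.13 higher in H460 (adjusted p = 0.00334; the change was 0.29 and not called once array width was a covariate) and 0.30 ± 0.06 higher in H1299 (adjusted p = 0.00051), with a difference of 0.24 ± 0.15 (adjusted p = 0.358). On the narrow 2 h arrays of H460 the change of TP53BP1 had been -0.50. MDC1, which binds the phosphorylated histone at breaks, was called only at 8 h in H460, at 0.42 ± 0.12, a call that was lost with the width covariate (0.20, adjusted p = 0.754). RNF168, a ubiquitin ligase that spreads the break signal, fell by 0.42 at 2 h in H460 and by 0.21 and 0.23 at 4 and 12 h in H1299. RNF8, the ligase that acts before it, was called at no time in either line.

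Among the genes of end joining, LIG4 and POLQ moved and the Ku genes mostly did not pass the test. On the narrow 2 h arrays of H460, however, 6 of the 7 were called lower, and 0 with the width covariate. There POLQ changed by -0.78, DCLRE1C by -0.68 and NHEJ1 by -0.58. LIG4, the ligase that seals the ends, read 6.94, 7.25 and 6.95 at 12 h in H460, against 6.30, 6.54 and 6.66 at 0 h. In H1299 it read 6.36, 6.27 and 6.29 at 12 h, against 5.37, 5.64 and 6.07 at 0 h. In both lines each 12 h array was above each 0 h array. The change was 0.55 ± 0.12 in H460 (adjusted p = 0.00127) and 0.59 ± 0.12 in H1299 (adjusted p = 0.000419), with a difference of -0.04 ± 0.16 (adjusted p = 0.918). LIG4 was also higher at 8 and 24 h in both lines. In H460 all these calls were lost with the width covariate, which left 0.31, 0.35 and 0.32 at 8, 12 and 24 h. On the narrow 2 h arrays of H460 the change of LIG4 had been -0.56.

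POLQ, polymerase theta of end joining through short homologies, read 6.92, 6.83 and 6.89 at 8 h in H460, against 6.52, 6.79 and 6.88 at 0 h. In H1299 it read 7.73, 7.71 and 7.89 at 8 h, against 6.94, 7.15 and 7.30 at 0 h. The groups overlapped in H460 and not in H1299. The 8 h change was 0.13 ± 0.13 in H460 (adjusted p = 0.472) and 0.65 ± 0.09 in H1299 (adjusted p = 5e-06). At 24 h in H460 POLQ was 0.41 ± 0.13 lower than at 0 h, and in H1299 between 12 and 24 h it fell by 0.48 ± 0.10 (adjusted p = 0.00334).

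XRCC5 and XRCC6, the subunits Ku80 and Ku70 that ring the broken end, were called only at 2 h in H460. XRCC5 read 11.26, 11.20 and 10.53 there, against 11.17, 11.32 and 11.50 at 0 h, and XRCC6 read 10.96, 11.12 and 10.51, against 11.07, 11.26 and 11.59. Replicate 3 was the lowest for both, and the groups overlapped. The changes were -0.35 ± 0.12 for XRCC5 and -0.45 ± 0.11 for XRCC6, and without replicate 3 they were -0.11 and -0.28 and not called. In H1299 the changes of XRCC5 ran from 0.05 to 0.17 and those of XRCC6 from -0.07 to 0.15 over the 5 times, with no call. Of the other genes, apart from the 2 h calls in H460, XRCC4, the partner of the ligase, was called at 4 h in H1299 (-0.25 ± 0.08). NHEJ1, which bridges the ends, was called at 24 h there (-0.38 ± 0.07), and the nuclease gene DCLRE1C, which encodes Artemis, at 12 h there (0.45 ± 0.13). The calls of XRCC4 and DCLRE1C were lost with the width covariate, at -0.22 and 0.24.

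Of the nuclease complex that starts resection, RAD50 rose in H1299 at all 5 times. RAD50 read 9.03, 9.11 and 9.06 at 12 h in H460, against 8.73, 8.88 and 9.02 at 0 h, and in H1299 it read 9.06, 9.25 and 9.19, against 8.39, 8.61 and 8.89. Neither line's groups overlapped at 12 h, but the change was 0.21 ± 0.13 in H460 (adjusted p = 0.211) and 0.56 ± 0.08 in H1299 (adjusted p = 6.34e-06). The changes differed by -0.35 ± 0.15, which was not called (adjusted p = 0.159). MRE11 and NBN, its partners, were among the genes with the largest fall at 2 h in H460, -1.01 ± 0.20 and -0.99 ± 0.17, and MRE11 was 0.52 higher there at 12 h (adjusted p = 0.0465), which turned to -0.05 with array width in the model. In H1299 they rose by 0.42 ± 0.11 and 0.33 ± 0.10 at 12 h, reduced to 0.19 and 0.13 and not called with the width covariate (adjusted p = 0.314 and 0.408).

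EXO1, the exonuclease that extends resection, went down late in both lines. It read 10.87, 10.85 and 10.86 at 12 h in H460, against 11.17, 11.34 and 11.71 at 0 h, and 8.44, 8.52 and 8.57 in H1299, against 8.73, 8.78 and 8.88. The groups did not overlap in either line. The 12 h change was -0.50 ± 0.12 in H460 (adjusted p = 0.00225) and -0.28 ± 0.06 in H1299 (adjusted p = 0.000422). At 4 h EXO1 had been 0.29 ± 0.06 higher than at 0 h in H1299.

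Of the recombination genes, the BRCA1 group rose in H1299. BRIP1, a helicase that binds BRCA1 and belongs to the Fanconi pathway as FANCJ, read 6.92, 6.61 and 6.56 at 4 h in H460, against 6.53, 7.08 and 7.35 at 0 h. In H1299 it read 8.43, 8.31 and 8.29 at 4 h, against 7.26, 7.60 and 7.71 at 0 h. The H460 groups overlapped and the H1299 groups were apart. The change was -0.30 ± 0.17 in H460 (adjusted p = 0.369) and 0.79 ± 0.08 in H1299 (adjusted p = 7.46e-07), a difference of -1.09 ± 0.20 (adjusted p = 0.000597). At 24 h BRIP1 was 0.64 ± 0.17 lower in H460 and back near its starting level in H1299 (0.07 ± 0.08). Its window, shown because its change also differed at all 5 times, lies at chr17:61863529-61863778, minus strand, and holds 1 CHR and 3 CCAAT boxes.
BRIP1: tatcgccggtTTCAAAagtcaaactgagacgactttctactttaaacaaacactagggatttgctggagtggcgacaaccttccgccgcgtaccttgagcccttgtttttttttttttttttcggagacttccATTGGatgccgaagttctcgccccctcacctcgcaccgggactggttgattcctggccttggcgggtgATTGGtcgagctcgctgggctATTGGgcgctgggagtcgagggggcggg

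BRCA1, the ubiquitin ligase that promotes resection and loading of the recombinase, read 8.37, 8.39 and 8.49 at 8 h in H460, against 8.25, 8.52 and 8.66 at 0 h, and 8.11, 8.07 and 8.15 at 8 h in H1299, against 7.34, 7.67 and 7.82. Only the H1299 groups were apart. On the narrow 2 h arrays of H460 the change of BRCA1 had been -0.59, and at 24 h BRCA1 read from 7.94 to 8.26 there. The 8 h change was -0.08 ± 0.14 in H460 (adjusted p = 0.716) and 0.47 ± 0.08 in H1299 (adjusted p = 0.000119). The difference, -0.54 ± 0.17, was called (adjusted p = 0.0309) but was lost without replicate 1 or 2 of the H460 8 h arrays or any one of the H1299 8 h arrays (adjusted p from 0.055 to 0.0789). BARD1, its partner, was not called at 8 h in H460 (-0.23 ± 0.14) and was 0.41 ± 0.07 higher in H1299, with a difference of -0.64 ± 0.16 (adjusted p = 0.00765). At 12 h the H1299 rises of BRCA1 (0.28) and BRIP1 (0.40) were lost with the width covariate, at 0.09 and 0.20. PALB2, the link from BRCA1 to BRCA2, was 0.24 to 0.37 higher at 2, 4, 8 and 12 h in H1299.

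The paralogs of the recombinase went their own ways. RAD51C, which loads and steadies the filament and resolves junctions, read 8.66, 8.57 and 8.70 at 8 h in H460, against 7.24, 7.58 and 8.25 at 0 h, whereas in H1299 it read 8.44, 8.38 and 8.52, against 8.39, 8.51 and 8.75. All H460 arrays at 8 h and at 12 h were above the highest at 0 h. The 8 h change was 0.99 ± 0.16 in H460 (adjusted p = 0.000319) and -0.08 ± 0.08 in H1299 (adjusted p = 0.452), a difference of 1.07 ± 0.19 (adjusted p = 0.000228). Once array width was a covariate the H460 change was 0.50 and not called (adjusted p = 0.27), while the difference was 0.99 (adjusted p = 2.03e-05). RAD51C was the 1 recombination gene called with a positive difference, H460 over H1299, at 4, 8 and 12 h. Its window at chr17:58692323-58692572, plus strand, the upstream one of 2 annotated starts, is shown as the counterpart to BRIP1 and holds none of the words.
RAD51C: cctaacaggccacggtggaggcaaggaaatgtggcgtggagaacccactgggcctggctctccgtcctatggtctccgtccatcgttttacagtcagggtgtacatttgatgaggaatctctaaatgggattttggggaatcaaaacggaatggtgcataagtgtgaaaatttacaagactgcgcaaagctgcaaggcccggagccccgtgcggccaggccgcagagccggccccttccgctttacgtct

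RAD51AP1, which helps the recombinase invade the sister strand, had the largest late fall in H460. It read 6.83, 7.07 and 7.10 at 12 h in H460, against 7.61, 8.12 and 8.21 at 0 h, and 8.98, 9.16 and 8.93 in H1299, against 9.15, 9.56 and 9.63. The H460 groups were apart and the H1299 groups overlapped by 1 array. The change was -1.05 ± 0.15 in H460 (adjusted p = 2.7e-05) and -0.43 ± 0.09 in H1299 (adjusted p = 0.000819), a difference of -0.62 ± 0.19 (adjusted p = 0.0301). At 24 h it was -0.99 ± 0.15 in H460 and -0.17 ± 0.09 in H1299. Its window at chr12:4538640-4538889, plus strand, shown as that of the gene with the largest late fall, holds 1 CCAAT box.
RAD51AP1: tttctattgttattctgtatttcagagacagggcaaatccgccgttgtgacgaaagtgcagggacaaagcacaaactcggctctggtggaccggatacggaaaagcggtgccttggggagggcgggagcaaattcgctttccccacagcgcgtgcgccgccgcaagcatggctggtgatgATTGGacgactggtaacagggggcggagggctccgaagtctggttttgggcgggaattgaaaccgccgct

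RAD54L, a translocase that drives strand exchange, read 6.08, 6.21 and 6.10 at 12 h in H460, against 6.53, 6.93 and 7.09 at 0 h, and in H1299 it read 7.52, 7.55 and 7.57, against 7.51, 7.74 and 7.84. The H460 groups were apart. The change was -0.78 ± 0.11 in H460 (adjusted p = 2.57e-05) and -0.16 ± 0.07 in H1299 (adjusted p = 0.0988), a difference of -0.61 ± 0.13 (adjusted p = 0.00175). Its relative RAD54B was instead 0.27 to 0.38 higher at all 5 times in H1299, though at 8 h not with the width covariate (adjusted p = 0.0534). XRCC3 was lower at 4, 8 and 12 h in H460, by -0.46, -0.37 and -0.51, and at 2 h in H1299, by -0.38. XRCC2 was higher at 4 and 8 h in H1299. The 8 h calls of XRCC3 in H460 and of XRCC2 in H1299 were lost with the width covariate. RAD51B, another paralog, was called only at 2 h in H460. RAD52, which anneals single strands, was the 1 member higher at 4 h in H460 (0.56 ± 0.10, adjusted p = 0.00363) and was higher at 4, 12 and 24 h in H1299.

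**Figure D2:**
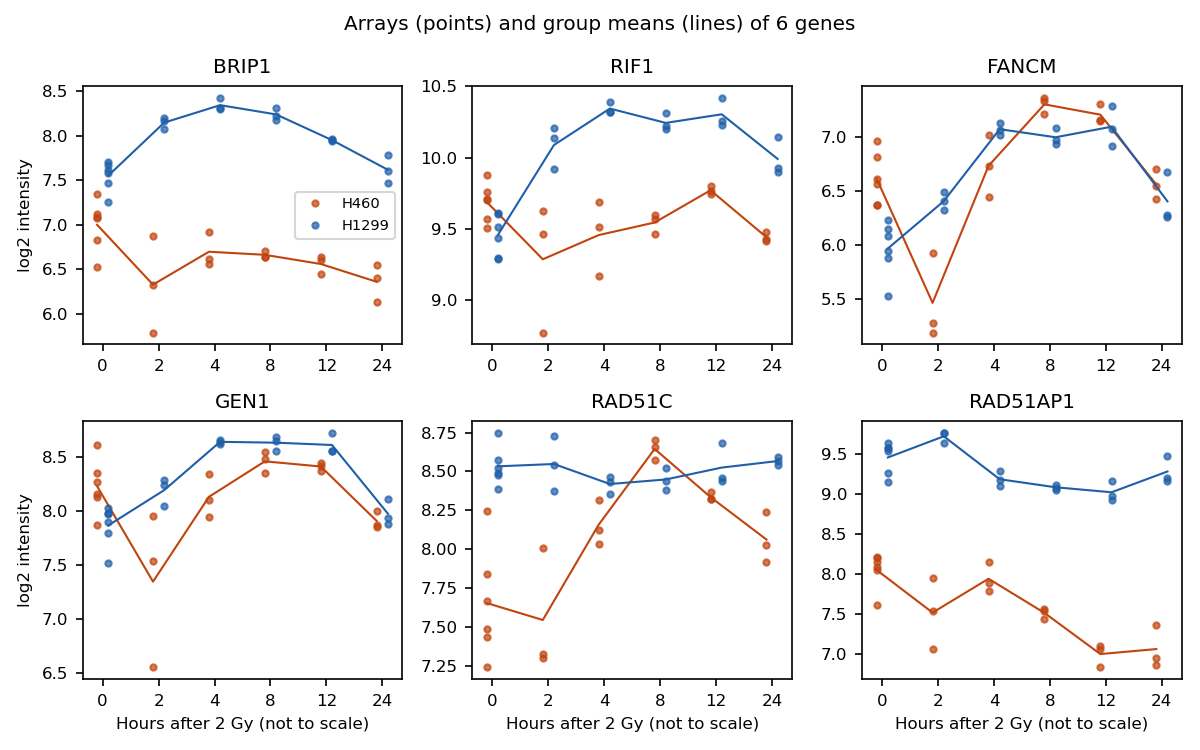
Log2 intensity of 6 genes on every array (points) with group means (lines) at 0, 2, 4, 8, 12 and 24 h, H460 in orange and H1299 in blue. RIF1 and BRIP1 stand apart in the lines after 0 h, though at 0 h RIF1 was already higher on average and BRIP1 lower in H460. RAD51C rises to 8.57 to 8.70 at 8 h in H460 alone, and the 2 h arrays of H460 scatter widely.

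Of the junction genes, GEN1, which cuts Holliday junctions, read 8.35, 7.94 and 8.11 at 4 h in H460, against 7.87, 8.21 and 8.61 at 0 h. In H1299 it read 8.66, 8.62 and 8.64, against 7.52, 7.94 and 8.03. The groups overlapped in H460 and not in H1299. The change was -0.10 ± 0.18 in H460 (adjusted p = 0.83) and 0.78 ± 0.09 in H1299 (adjusted p = 2.06e-06), a difference of -0.88 ± 0.22 (adjusted p = 0.00862). In H1299 it stayed 0.77 and 0.75 higher at 8 and 12 h and then fell by 0.64 ± 0.10 between 12 and 24 h (adjusted p = 0.000324). The RecQ helicases WRN and BLM rose there by 0.62 ± 0.12 and 0.34 ± 0.11 at 12 h, and BLM was 0.49 ± 0.12 lower at 24 h in H460. EME1, partner of the nuclease MUS81, was higher at 8 h in H460 (0.48 ± 0.14, lost with the width covariate at 0.16) and in H1299 (0.30 ± 0.07), and MUS81 was lower at 2 h in both lines. The 12 h rise of BLM in H1299 was lost with that covariate (0.11), and so was the 2 h call of MUS81 in H460.

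In the Fanconi core complex FANCM, the translocase that brings the complex to DNA, was higher at 8 h in both lines. On the narrow 2 h arrays of H460 its change had been -1.15. It read 7.33, 7.21 and 7.36 at 8 h in H460, against 6.37, 6.58 and 6.96 at 0 h, and 6.97, 6.93 and 7.08 in H1299, against 5.53, 6.01 and 6.23. The groups were apart in both. The 8 h change was 0.69 ± 0.15 in H460 (adjusted p = 0.00439) and 1.03 ± 0.12 in H1299 (adjusted p = 1.55e-06), a difference of -0.34 ± 0.20 (adjusted p = 0.334). The H460 rise was 0.27 and not called with array width in the model (adjusted p = 0.694). The lines differed at 4 h, by -0.98 ± 0.20 (adjusted p = 0.00168), when the change of FANCM was 0.12 ± 0.15 in H460 and 1.10 ± 0.12 in H1299. Its window at chr14:45135680-45135929, plus strand, shown as that of the gene with the largest rise in H1299, holds 2 CCAAT boxes.
FANCM: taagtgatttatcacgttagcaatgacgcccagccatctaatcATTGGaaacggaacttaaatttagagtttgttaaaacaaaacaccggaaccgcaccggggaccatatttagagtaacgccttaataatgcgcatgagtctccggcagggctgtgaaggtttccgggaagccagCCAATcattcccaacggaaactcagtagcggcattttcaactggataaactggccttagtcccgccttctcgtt

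FANCF, an adaptor of the core complex, read 7.09, 7.20 and 7.10 at 12 h in H460, against 6.13, 6.42 and 6.77 at 0 h, and 4.39, 4.50 and 4.38 in H1299, against 4.16, 4.22 and 4.45. The H460 groups were apart. The change was 0.70 ± 0.14 in H460 (adjusted p = 0.000933; the change was 0.34 and not called once array width was a covariate) and 0.17 ± 0.10 in H1299 (adjusted p = 0.196). The difference of 0.53 ± 0.17 (adjusted p = 0.0471) was lost without any one of the 3 H460 arrays at 12 h. FANCB rose in H1299 by 0.69 ± 0.13 at 4 h and 0.76 ± 0.13 at 12 h. FANCL, the ubiquitin ligase subunit, was higher at 12 and 24 h in H460 (0.45 and 0.40) and at 2 and 24 h in H1299, and both H460 calls were lost with the width covariate, at 0.04 and 0.02. FANCG and FANCE were called only as lower: FANCG by -0.57 ± 0.11 at 24 h in H460 and -0.28 ± 0.07 at 2 h in H1299, FANCE by -0.40 ± 0.11 at 12 h in H460 (not called with the width covariate, adjusted p = 0.113) and -0.28 ± 0.07 at 2 h in H1299. FANCC was called only at 2 h in H460.

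FANCI, which is loaded with FANCD2 onto DNA as the target of the core complex, read 9.52, 9.20 and 9.47 at 4 h in H460, against 9.21, 9.46 and 9.63 at 0 h, and 9.52, 9.46 and 9.51 in H1299, against 8.84, 9.09 and 9.21. Only the H1299 groups were apart. The change was -0.05 ± 0.12 in H460 (adjusted p = 0.875) and 0.43 ± 0.07 in H1299 (adjusted p = 8.27e-05), a difference of -0.47 ± 0.14 (adjusted p = 0.0214). FANCI was 0.37 ± 0.12 lower at 24 h in H460, after a lower call at -0.395 on the narrow 2 h arrays there.

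Set beside each other, the classes had these medians and counts, higher and then lower. In H460 at 8 h, where 16.9% of all genes were called, the median change was 0.21 for break signalling (1 and 0 of 5 genes), 0.20 for end joining (1 and 0 of 7 genes), 0.10 for end resection (0 and 0 of 4), -0.02 for homologous recombination (1 and 2 of 12), 0.14 for junction processing (1 and 0 of 5) and 0.24 for the Fanconi core complex (2 and 0 of 7). At 24 h (28.7% of all genes) these were -0.05 (0 and 0), -0.21 (1 and 1), 0.06 (0 and 1), -0.29 (0 and 5), -0.25 (0 and 1) and -0.05 (2 and 2). In H1299 at 8 h (24.6% of all genes) they were -0.06 (2 and 0), 0.15 (2 and 0), 0.36 (3 and 0), 0.28 (6 and 1), 0.44 (4 and 0) and 0.07 (2 and 0). At 24 h (11.7%) they were 0.04 (1 and 0), 0.05 (1 and 1), 0.14 (1 and 1), 0.08 (2 and 0), 0.11 (0 and 0) and 0.15 (3 and 1). No test was made between classes.

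**Figure D3:**
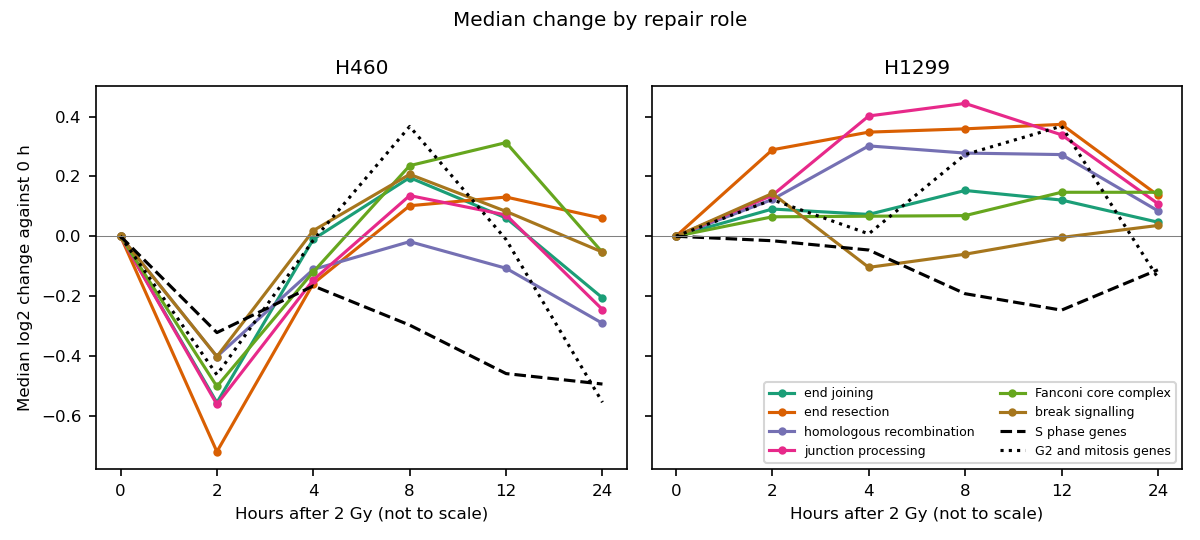
Median log2 change against 0 h of each class of repair genes (coloured lines), of 33 S phase genes (dashed) and of 30 genes of G2 and mitosis (dotted) in H460 (left) and H1299 (right), with 0 h at 0. In H1299 junction processing and end resection reach 0.44 and 0.37, and in H460 every class is below 0 at 2 h.

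Between 12 and 24 h no member was called in H460 (0 by limma, 10 at an unadjusted p under 0.05), where 1.95% of all genes were called, 1.31% as higher and 0.636% as lower. In H1299 8 of 41 fell by 0.26 to 0.69 on the log2 scale and 0 rose (8.35% of all genes called, 5.11% as lower and 3.24% as higher). With array width as a covariate 8 were called (8.65% of all genes) but 4 of them were higher (XRCC3, RAD54L, FANCL and RNF168) and 4 lower (POLQ, BARD1, GEN1 and FANCM). The 8 that fell without it are NHEJ1, POLQ, BARD1, BRIP1, GEN1, FANCM, FANCI and RIF1. That count was 3 to 4 when replicate 1 or 2 at 24 h or replicate 2 or 3 at 12 h was left out.

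Cell-cycle genes moved over the same hours. Of 33 S phase genes, 13, 22 and 21 were lower at 8, 12 and 24 h in H460 and 14, 18 and 7 in H1299. Of all genes 16.9, 33.5 and 28.7% were called at these times in H460 and 24.6, 29.7 and 11.7% in H1299. At 2 h 19 were lower and 0 higher in H460 (40.4% of all genes called), and 4 lower and 2 higher in H1299 (13.8%). Of 30 genes of G2 and mitosis, 13 were higher at 8 h and 25 lower at 24 h in H460, whereas in H1299 22 and 25 were higher at 8 and 12 h and 6 lower at 24 h. In H460 24 of them were lower and 0 higher at 2 h, and 6 lower and 5 higher at 12 h. In H1299 3 were lower and 9 higher at 2 h. The part of the cell cycle in the changes of the repair genes was not tested.

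The other genes of the same pathways, 60 measured, were counted in the same way. In H460 2 were higher and 27 lower at 2 h, none was called at 4 h, and 4, 7 and 5 were higher and 0, 9 and 12 lower at 8, 12 and 24 h. These are 48.3, 0, 6.67, 26.7 and 28.3% of the 60, beside 40.4, 2.92, 16.9, 33.5 and 28.7% of all genes. In H1299 5, 15, 16, 17 and 5 were higher and 6, 2, 5, 8 and 2 lower at the 5 times. The shares were 18.3, 28.3, 35, 41.7 and 11.7%, beside 13.8, 15.9, 24.6, 29.7 and 11.7% of all genes. MCM8, a helicase of recombination, was 0.65 ± 0.08 higher at 4 h in H1299, and its change differed from that in H460 by -0.85 ± 0.20 (adjusted p = 0.00493). RMI1, which acts with BLM, differed by -0.69 ± 0.16 at 12 h (adjusted p = 0.0035). H2AX, the histone phosphorylated at breaks, was lower in both lines, by -0.74 ± 0.12 at 12 h in H460 and -0.50 ± 0.07 at 2 h in H1299. PRKDC, the kinase that binds Ku, differed by -0.65 ± 0.15 at 4 h (adjusted p = 0.00465).

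Before irradiation the lines already differed in 33 of the 41 genes, with 13 higher and 20 lower in H460 (55.1% of all genes called, 26% as higher and 29.1% as lower). EXO1 averaged 11.36 in H460 and 8.79 in H1299, a difference of 2.57 ± 0.08 (adjusted p = 7.48e-16), and its 6 arrays ran from 11.17 to 11.71 and from 8.73 to 8.88. FANCF averaged 6.43 and 4.25, a difference of 2.17 ± 0.11 (adjusted p = 6.67e-13). MDC1 averaged 7.29 and 9.24, a difference of -1.95 ± 0.09 (adjusted p = 2.22e-13), and RAD51AP1 8.05 and 9.46, a difference of -1.41 ± 0.11 (adjusted p = 5.66e-10). The groups of these 4 genes were far apart. BRCA1 was 0.85 ± 0.09 higher in H460 and MRE11 0.94 ± 0.12 lower. XRCC6, DCLRE1C, NBN, BARD1, XRCC2, RAD52, MUS81 and FANCC were not called.

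**Figure D4:**
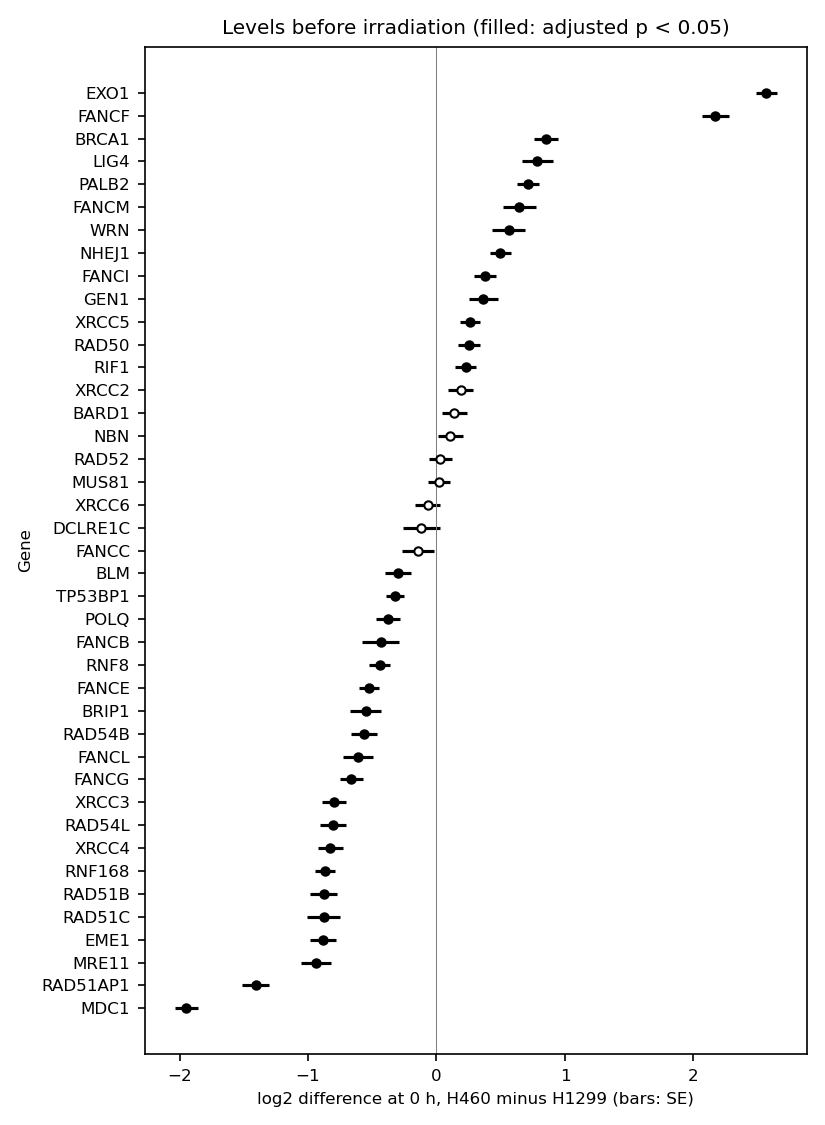
Difference in log2 intensity at 0 h, H460 minus H1299, for the 41 genes in order of size (points, bars are standard errors, filled where the adjusted p was under 0.05). EXO1 and FANCF are highest at 2.57 and 2.17, and MDC1 is lowest at -1.95.

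**Figure D5:**
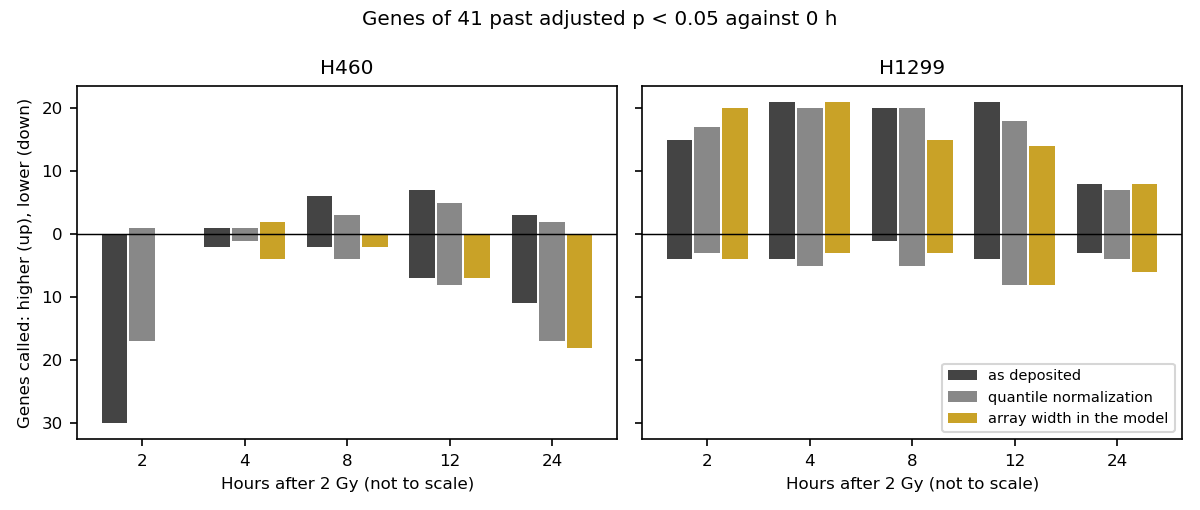
Number of the 41 genes called against 0 h, higher above the line and lower below it, at each time in H460 (left) and H1299 (right), for the values as deposited, after quantile normalization and with array width in the model. The 30 lower calls of H460 at 2 h become 17 and 0, and the 21 higher calls of H1299 at 4 h become 20 and 21.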

How the data were processed

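Messenger RNA of 2 lines was measured on 42 Affymetrix arrays from 100 ng of total RNA each, per the labels' protocols. The deposited values are log2 array summaries, from 1.45 to 14.2, whose normalization is not given in the sources used here, and there are no detection calls. Of 32321 entries, 19158 had 1 gene symbol, 1388 had several and 11775 had none here. Where a gene had several, the brightest on average was kept (754 left out), giving 18404 genes, untouched by any filter. Each member had 1 entry. The members and lists were chosen with earlier results of these data known. No 2 arrays were identical (0 pairs).

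Tests used limma 3.58.1 in R 4.3.3 (lmFit, eBayes with trend): a quadratic F-test on hours per line, contrasts of each time with 0 h from time point means over 21 arrays, the interaction of line and time over 42 arrays, and H460 minus H1299 over 12 arrays at 0 h. All were two-sided, with Benjamini-Hochberg adjustment over all genes and a threshold of 0.05. The scripts were tested on simulated data. The number of arrays limits the precision. Alternatives were a filter on dim genes, quantile normalization, median centring, array width as covariate, 0 h replicates 1 to 3 or 4 to 6 alone, a replicate block, 1 mean per time point in place of the quadratic, each array left out, and, added after the data were seen, the H460 2 h arrays left out. Same-numbered arrays did not deviate together (mean correlation -0.009 in H460 and -0.019 in H1299), so the numbers were not taken as pairs. All members could be named, and other pathway genes by the smallest adjusted p, up to 4 a comparison. In each comparison up to 6 called members with the largest rise and 6 with the largest fall were followed under the alternatives. For the difference it was up to 4 of each, and the text names only some of these. Ku, BRCA1 and FANCI were followed in every comparison under the alternatives, called or not, and CDKN1A and MDM2 check the labels.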

Additional observations from a re-analysis of the deposited data

Results flagged for a closer look

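In groups of 6 arrays at 0 h, 9 of 82 member and line combinations had 1 array far from the others (gap over range above 0.625, which chance passes in about 1 in 20). In H460 these were XRCC4 at 7.85 in replicate 1 (others from 8.21 to 8.41), RAD51AP1 at 7.61 in replicate 1 (8.05 to 8.21), RAD51B at 6.54 in replicate 6 (6.16 to 6.27) and TP53BP1 at 7.84 in replicate 5 (7.99 to 8.04). In H1299 replicate 2 was low for XRCC6 at 11.03 (11.36 to 11.51), XRCC3 at 7.52 (7.96 to 8.06), FANCC at 7.25 (7.69 to 7.93) and RNF168 at 8.15 (8.39 to 8.48). FANCF read 4.45 in H1299 replicate 5 (4.16 to 4.24). Replicate 2 had an interquartile range of 3.24, beside 3.57 to 3.69 on the other H1299 arrays at 0 h, and its part in these values was not tested.

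The change in H460 minus the change in H1299 passed the interaction test for these members, named by size. At 2 h FANCM differed by -1.58, WRN by -1.45, NBN by -1.29 and MRE11 by -1.28, over H460 arrays that were narrower than all others. With array width in the model these were -0.97, -0.83, -0.81 and -0.68, and that of MRE11 was not called (adjusted p = 0.0963, limma). At 4 h RAD51C differed by 0.62, RIF1 by -1.12, BRIP1 by -1.09, FANCM by -0.98 and WRN by -0.95. At 8 h RAD51C differed by 1.07, MDC1 by 0.48, BRIP1 by -1.02, RIF1 by -0.93, BARD1 by -0.64 and BRCA1 by -0.54. At 12 h RAD51C differed by 0.69, FANCF by 0.53, BRIP1 by -0.84, RIF1 by -0.76, BARD1 by -0.70 and RAD51AP1 by -0.62. At 24 h RAD51AP1 differed by -0.81, RIF1 by -0.78, BRIP1 by -0.71 and BLM by -0.66.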

How the results depend on the processing

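Counts of members called are compared with those of the report, and the cause of a change was not tested. With array width in the model the H460 time course had 23, the difference of time courses 19, H460 at 2, 4, 8 and 12 h 0, 6, 2 and 7 (at 24 h 18, all lower), H460 between 12 and 24 h 1, and the difference at 2, 8, 12 and 24 h 9, 15, 16 and 18. FANCB at 2 h and MRE11 at 12 h in H460 then reversed, to 0.031 and -0.047. With 1 mean per time point the H460 time course had 39 and the difference of time courses 30. Quantile normalization gave 12 for the difference of time courses and 18 for H460 at 2 h. Median centring gave 8 for the difference of time courses, 2 for H460 between 12 and 24 h and 7 for the difference at 4 h. The filter on dim genes, which all 41 members passed, gave 8 for the difference of time courses and 1 for H460 between 12 and 24 h. With 0 h replicates 1 to 3 alone the difference of time courses had 3 and H460 at 4 h 1. With 0 h replicates 4 to 6 alone H460 at 4, 8 and 24 h had 1, 4 and 8, H1299 at 2 and 24 h 12 and 7, and the difference at 4, 8, 12 and 24 h 5, 4, 5 and 5. With the replicate block the difference of time courses had 2, H460 at 4 h 1 and H460 at 8 h 5; other counts stayed within 1.5 times. Same-numbered arrays correlated over 0.1 in 6 of 45 pairs in H460 and 11 of 45 in H1299, and 5 and 6 of 18 arrays correlated best with their own number. Without the H460 2 h arrays the H460 time course had 27, the difference of time courses 17, H460 at 4 and 24 h 6 and 23, H460 between 12 and 24 h 4, and the difference at 12 and 24 h 14 and 17.

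With each array left out, the H460 time course had 11 to 20 and H1299 24 to 28 members, and their difference 5 to 13. H460 had 16 to 32 at 2 h, 1 to 4 at 4 h, 3 to 10 at 8 h, 11 to 15 at 12 h, 8 to 15 at 24 h and 0 to 0 between 12 and 24 h. H1299 had 5 to 21 at 2 h, 14 to 24 at 4 h, 19 to 22 at 8 h, 17 to 27 at 12 h, 6 to 12 at 24 h and 3 to 10 between 12 and 24 h. The difference had 21 to 33 at 2 h, 6 to 16 at 4 h, 5 to 9 at 8 h, 5 to 9 at 12 h and 6 to 11 at 24 h. The lines at 0 h differed in 32 to 34. The number of arrays and the absence of detection calls limit what can be said of dim genes such as FANCF in H1299.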
